A study of Mus musculus with 5 samples.

Results

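Transforming growth factor beta (TGF beta) and matrix turnover were followed through 9 genes in RNA of whole mouse retina: the ligands Tgfb1, Tgfb2 and Tgfb3, the activators Itgb8 and Thbs1, the receptors Tgfbr1 and Tgfbr2, the protease Mmp2 and the protease inhibitor Timp1. They were chosen by name, as all probe sets annotated to exactly 1 of these genes, and are 9 of the 18193 genes of the array. Each of 5 arrays measured 1 pool of retinas. Diabetic replicates 1 and 2 each pooled 4 retinas of 2 mice, at 5 weeks after diabetes was induced with streptozotocin, a toxin of insulin-producing beta cells. Diabetic replicate 3 pooled 6 retinas of 3 mice whose diabetes had lasted 3 to 4 weeks, with no inducing agent named for it. Control replicates 1 and 2 each pooled 4 retinas of 2 age-matched mice that were untreated and normal in blood glucose. The sources used here name no strain, sex or age. Since each array is a pool, a p-value sets a difference against the spread between pools, not between single mice. The limma fit draws each gene's spread toward that of genes of similar level.

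TGF beta ligands are secreted in a latent form, held inactive by their own propeptide. Integrin alpha v beta 8, whose beta subunit is encoded by Itgb8, and thrombospondin 1, encoded by Thbs1, release or expose the active ligand. Active ligand is bound by the type II receptor Tgfbr2, which recruits and phosphorylates the type I receptor Tgfbr1, and Smad proteins carry the signal to the nucleus. Many of the induced genes build or remodel extracellular matrix. Gelatinase A, encoded by Mmp2, degrades matrix, and the protein encoded by Timp1 inhibits matrix metalloproteinases. In the retina these ligands are known from Muller glia, the pigment epithelium and vessels, and thickening of the capillary basement membrane is a known feature of diabetic retinopathy.

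The RNA carried the markers of retina. Of the rod photoreceptor list, 9 of 9 genes found in the table lay in the tested range, as did 7 of 7 Muller glia genes. Tissue from around the neural retina differed between pools. The summed signal of 8 pigment epithelium genes was 53526 to 80029 in the diabetic pools and 99279 to 145562 in the control pools. Its genes of highest mean were Ttr, a carrier of retinol and thyroid hormone, and Rrh, an opsin. Ttr made up most of the sum in every pool, at 40717, 64634 and 41264 in diabetic and 76823 and 101561 in control pools. Rrh overlapped between groups, at 5726, 5283 and 5067 in diabetic and 5696 and 5571 in control pools. The summed signal of 12 skeletal muscle genes was 85645 in diabetic replicate 3 and 52969 in control replicate 2, and between 6011 and 6646 in the other 3 pools. The 3' to 5' ratio of the beta-actin control was 4.32 in diabetic replicate 2, against 2.01 to 2.71 in the other arrays.

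Itgb8 was the 1 member whose groups did not overlap, and promoter sequences are shown for it and for the ligands Tgfb2 and Tgfb1. Tgfb2 was nearly flat over the pools, and Tgfb1 was dim. The windows run from 250 bases before to 50 bases after the annotated start, 5′ to 3′ along the gene, and were taken from RefSeq on build GRCm38.p6. They are chr12:119238227-119238526 on the minus strand for Itgb8, chr1:186705940-186706239 on the minus strand for Tgfb2 and chr7:25686752-25687051 on the plus strand for Tgfb1. Capitals mark matches on either strand to the GC box GGGCGG, the AP-1 element TGANTCA, the TATA box TATAAA and the element CAGACA, a sequence to which Smad proteins bind.
Itgb8: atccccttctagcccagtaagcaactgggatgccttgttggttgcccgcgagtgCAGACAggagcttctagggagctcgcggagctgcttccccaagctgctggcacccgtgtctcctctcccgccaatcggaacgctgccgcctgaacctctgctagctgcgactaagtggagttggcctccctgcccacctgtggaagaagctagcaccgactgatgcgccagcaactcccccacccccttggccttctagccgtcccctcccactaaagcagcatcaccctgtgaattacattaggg
Tgfb2: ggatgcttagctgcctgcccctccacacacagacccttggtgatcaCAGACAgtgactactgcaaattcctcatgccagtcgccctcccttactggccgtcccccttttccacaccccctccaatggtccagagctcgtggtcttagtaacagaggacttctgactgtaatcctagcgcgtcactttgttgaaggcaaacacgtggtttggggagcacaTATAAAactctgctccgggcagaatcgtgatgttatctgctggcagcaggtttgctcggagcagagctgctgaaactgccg
Tgfb1: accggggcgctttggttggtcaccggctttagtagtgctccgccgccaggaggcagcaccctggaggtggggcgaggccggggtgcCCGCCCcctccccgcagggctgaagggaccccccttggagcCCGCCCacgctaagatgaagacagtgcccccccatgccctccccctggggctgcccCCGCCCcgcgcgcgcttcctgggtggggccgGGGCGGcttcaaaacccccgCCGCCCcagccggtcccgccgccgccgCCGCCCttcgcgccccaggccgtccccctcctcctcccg
The Tgfb1 window held 6 GC boxes, 5 of them before the start, and none of the other motifs searched. The Tgfb2 window held 1 TATA box, 31 bases before the start, and 1 CAGACA element. The Itgb8 window held 1 CAGACA element, 196 bases before the start, and no match to the other motifs. Of 32851 promoter windows of mouse genes in the same table, 35.7% held a GC box, 7.81% an AP-1 element, 13.6% a TATA box and 21.0% a CAGACA element. RefSeq windows were at hand for 6 of the 9 genes.

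Levels are signal intensities on the linear scale as deposited. Differences are on the scale log2(signal + 120.6), which understates changes of dim genes. Genes in the upper 60% by mean level were tested, and 6 of the 9 members passed this filter: Tgfb2, Tgfb3, Itgb8, Tgfbr1, Tgfbr2 and Mmp2. Tgfb1, Thbs1 and Timp1 lay below it and are given by their values with no test.

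**Figure D1:**
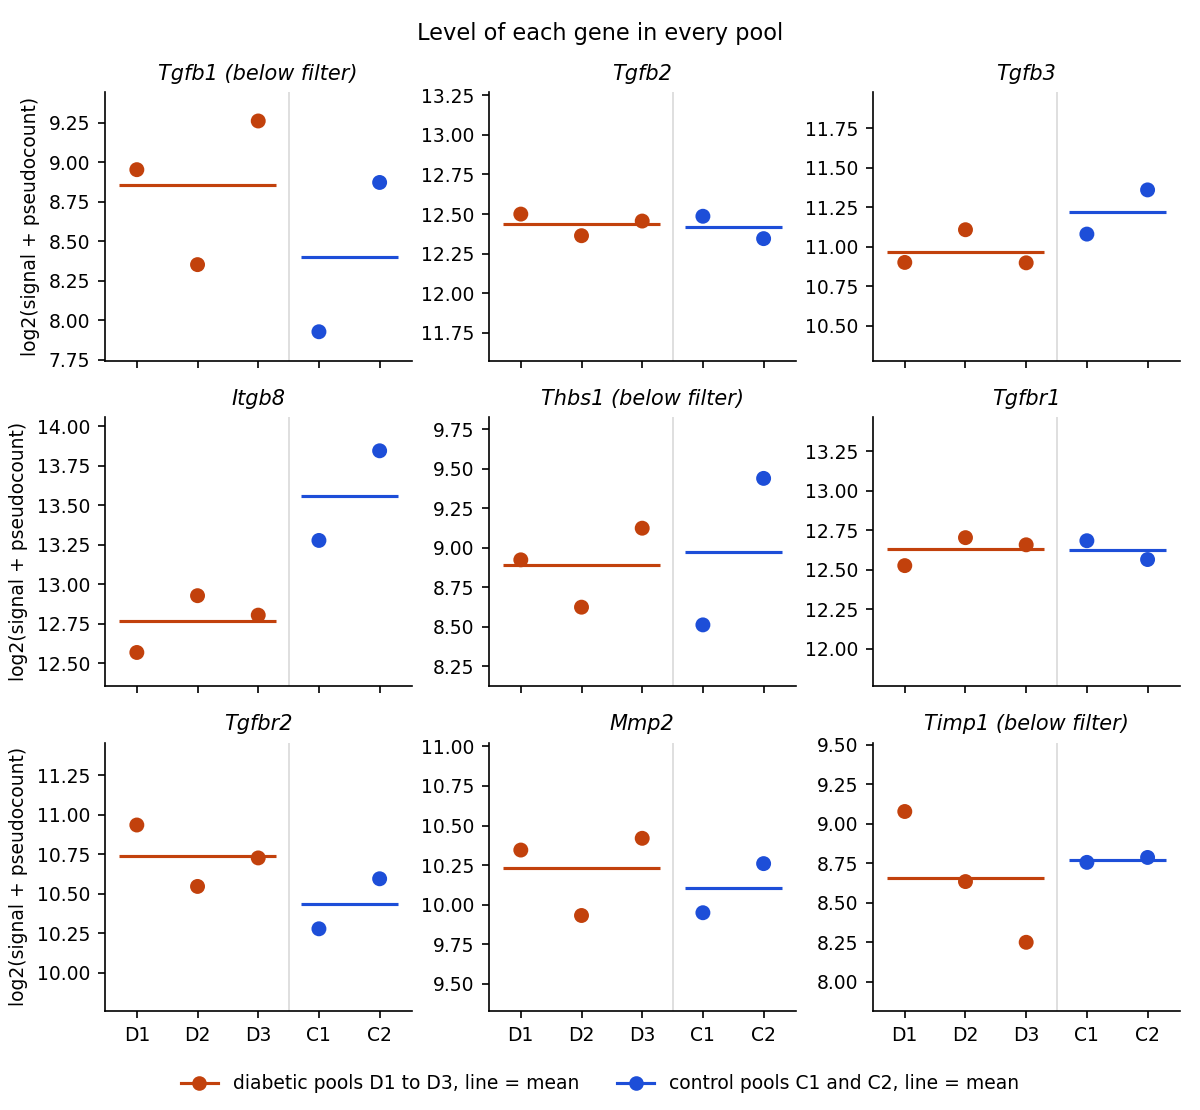
Level of each of the 9 genes in every pool, as log2(signal + 120.6), with D1 to D3 the diabetic and C1 and C2 the control replicates, 1 point per pool and a line at each group's mean. Every panel spans the same height of the log2 scale but starts at its own level. The groups separate in the Itgb8 panel, while the points of Tgfb2 and Tgfbr1 lie within 0.16 and 0.18 of each other.

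Among the ligands, Tgfb2 was steady over all 5 pools. TGF beta 2 is the isoform most abundant in the eye's vitreous and aqueous fluids. Its signal was 5670.0, 5146 and 5496 in diabetic replicates 1 to 3, against 5615 and 5079 in control replicates 1 and 2. The groups overlapped throughout, with the lowest values in diabetic replicate 2 and control replicate 2. The log2 difference was 0.02 (SE 0.10), with a 95% interval from -0.21 to 0.25, which on the fold scale runs from 0.867 to 1.19 (limma, adjusted p = 0.999). All 4 probe sets of Tgfb2 lay above the filter, with differences of -0.11, -0.02, 0.12 and 0.02. In the probe set at 0.12 the groups did not overlap, at 3123, 3025 and 3451 in diabetic pools and 2880 and 2989 in control pools.

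Tgfb3, a ligand of the same family with 1 probe set, was at 1790, 2084 and 1786 in diabetic replicates 1 to 3, against 2042 and 2505 in control replicates 1 and 2. Diabetic replicate 2 lay above control replicate 1, so the groups overlapped. The log2 difference was -0.25 (SE 0.15), with a 95% interval from -0.59 to 0.08 (limma, adjusted p = 0.999). Leaving out control replicate 2 gave -0.11, and leaving out control replicate 1 gave -0.39.

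Tgfb1, the ligand best known from scarring and immune regulation, was dim. The probe set that stood for it had a signal of 374.9, 206.1 and 492.8 in diabetic pools, against 122.8 and 347.9 in control pools. Control replicate 2 lay between the diabetic values, and control replicate 1 was the lowest pool. The log2 difference of 0.46 (SE 0.40) became -0.02 when control replicate 1 was left out and 0.93 when control replicate 2 was. Its other probe set, also dim, was at 228.0, 236.6 and 284.3 in diabetic pools and 455.6 and 149.8 in control pools, a difference of -0.10. The probe sets of Tgfb1 thus differed in direction, and control replicate 1 was the lowest pool in one and the highest in the other.

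Of the activators, Itgb8 was lower in diabetic pools. Its signal was 5955, 7672 and 7035 in diabetic replicates 1 to 3, against 9808 and 14589.9 in control replicates 1 and 2. All 3 diabetic pools lay below both control pools, and control replicate 2 stood well above control replicate 1. On the log2 scale the diabetic pools averaged 12.77 ± 0.18 (SD, n = 3) and the control pools 13.56 ± 0.40 (SD, n = 2). The log2 difference was -0.79 (SE 0.17), with a 95% interval from -1.18 to -0.40, or a fold of 0.577 (0.440 to 0.756).

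The difference of Itgb8 did not pass over all genes tested (limma, unadjusted p = 0.00141, adjusted p = 0.999), where 0% of 10916 genes did. It had the 11th smallest unadjusted p among them. At an unadjusted p under 0.05, Itgb8 was 1 of 6 tested members, while 3.39% of all tested genes reached it. Groups that did not overlap were likewise found in 1 of 6 tested members and in 18.1% of all tested genes, so that the share among members lies near that background. In the same direction as Itgb8, with diabetic below control, the share was 8.15%. A fall of 0.5 or more on the log2 scale was rarer, at 0.834% of tested genes, and Itgb8 was the 1 member with it. Leaving out control replicate 2 gave a difference of -0.51, and leaving out control replicate 1 one of -1.08. Between the pools of high muscle signal, diabetic replicate 3 minus control replicate 2, it was -1.04, while among the other 3 pools the diabetic mean lay at -0.53 relative to control replicate 1.

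**Figure D2:**
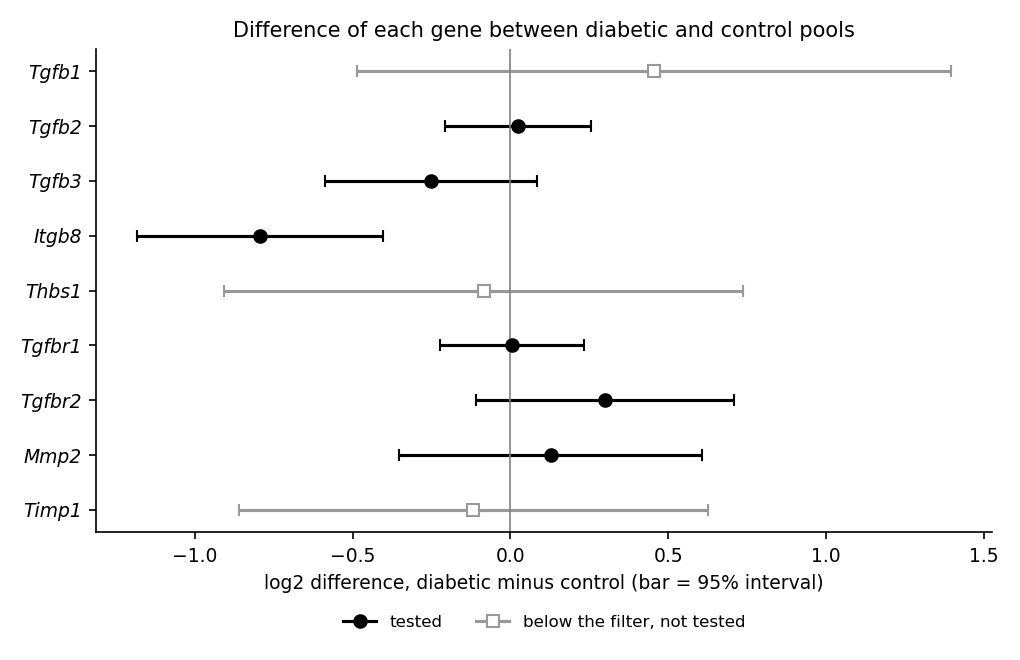
Log2 difference, diabetic minus control, of each gene with its 95% interval from the limma fit, filled points for the 6 tested genes and open squares for the 3 below the filter, whose intervals come from the fit without it. The interval of Itgb8, from -1.18 to -0.40, is the 1 of 9 that excludes 0.

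The pattern of Itgb8 over the pools was shared by other transcripts. Over 10505 tested genes compared, the 3 nearest in centred log2 values over 5 pools were Jun, a transcription factor subunit of AP-1, Slc6a20a, an imino acid transporter, and Frmd3, a FERM domain protein. Their root mean square differences from Itgb8 were 0.112, 0.112 and 0.114, where Itgb8 itself spanned 1.28. Jun differed by -0.82 between the groups, Slc6a20a by -0.94 and Frmd3 by -0.70. These genes were picked for likeness, so their own differences add no test.

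Summed signals of pigment epithelium and of microglia and macrophages followed nearly the same order of pools as Itgb8. The summed pigment epithelium signal was lowest in diabetic replicates 3 and 1, higher in diabetic replicate 2, higher again in control replicate 1 and highest in control replicate 2, and Itgb8 followed this order except that diabetic replicates 1 and 3 changed places. All 7 tested pigment epithelium genes were lower in diabetic pools, with a median of -1.22. In 6 of these 7, all but Rrh, the groups did not overlap, beside 18.1% of all tested genes. The same 6 had an unadjusted p under 0.05 (limma), beside 3.39% of all tested genes. None passed over all genes tested (limma, smallest adjusted p = 0.999). The melanosome genes, also of pigment cells, did not follow Itgb8: the summed signal of 6 was 22570, 2901 and 14358 in diabetic replicates 1 to 3 and 5165 and 19128 in control replicates 1 and 2, and the 3 tested had a median of 0.006. The summed signal of 8 microglia and macrophage genes, 3 of them in the tested range, was also lower, at 6164 to 7846 in diabetic pools and 8117 to 9258 in control pools. Its pools stood in the same order as for the pigment epithelium sum. In Csf1r and C1qb, its genes of highest mean, the groups overlapped. They did not overlap in 1 of the 3 tested genes, beside 18.1% of all tested genes. The summed Muller glia signal overlapped, at 197385 to 213842 in diabetic pools and 188588 to 218280 in control pools. In whole tissue, fewer cells of a type and less RNA per cell cannot be told apart, and the part of either cell type in the Itgb8 difference was not tested.

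**Figure D3:**
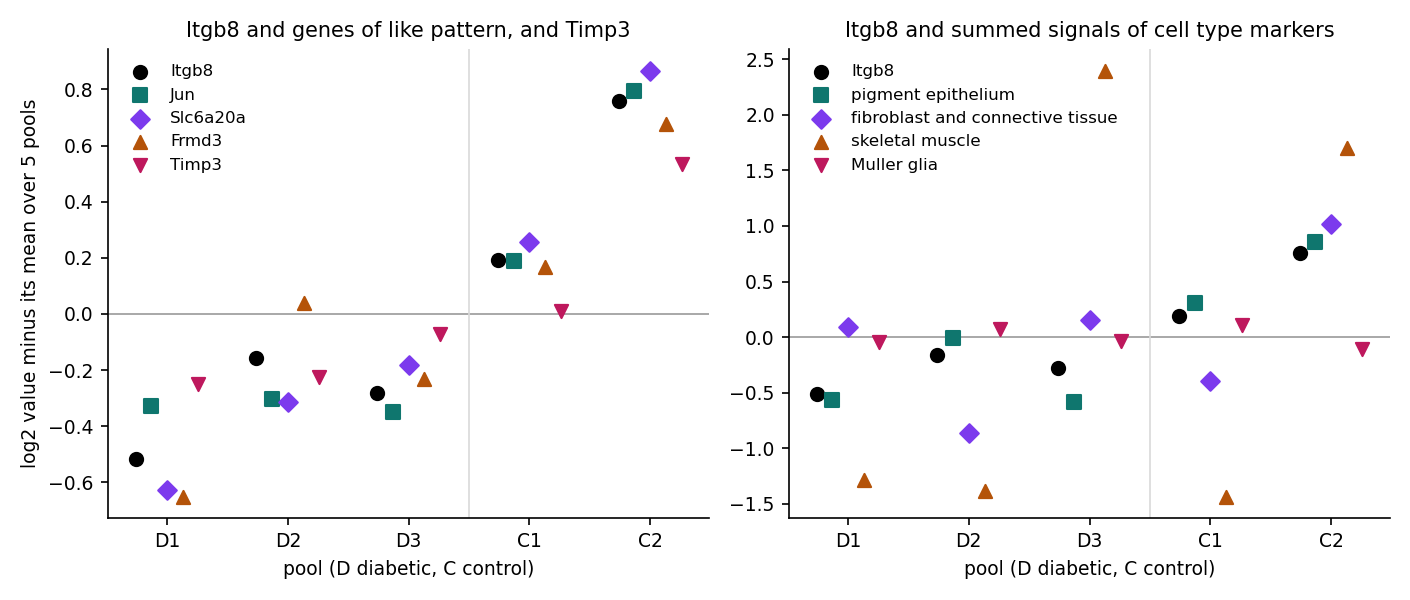
Log2 values minus their mean over the 5 pools (D1 to D3 diabetic, C1 and C2 control), with Itgb8, its 3 nearest genes and Timp3 on the left and Itgb8 with the summed signals of 4 marker lists on the right. Itgb8 and the pigment epithelium sum are below 0 in all 3 diabetic pools and above 0 in both controls, while skeletal muscle is high in D3 and C2.

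Thbs1, the other activator, was dim, at 365.1, 274.1 and 437.4 in diabetic pools, against 244.6 and 573.6 in control pools. The control pools held both the lowest and the highest value. Its log2 difference of -0.09 (SE 0.35) became 0.38 when control replicate 2 was left out and -0.55 when control replicate 1 was. The other probe set of Thbs1, with a difference of -0.28, also had its highest value in control replicate 2. A further probe set is annotated to Thbs1 together with Pald1 and was assigned to neither. It was brighter, at 1138, 1372 and 1450 in diabetic pools and 2577 and 3889 in control pools. Its groups did not overlap, with a log2 difference of -1.20, and which of the genes it measured is not known here.

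Neither receptor passed the test. Tgfbr1, the type I receptor kinase that phosphorylates Smad2 and Smad3, was at 5774, 6543 and 6337 in diabetic pools, against 6454 and 5933 in control pools. Both control values lay within the range of the diabetic pools. The log2 difference was 0.005 (SE 0.10), with a 95% interval from -0.22 to 0.23, or 0.856 to 1.18 as a fold (limma, adjusted p = 0.999). A second probe set of Tgfbr1, below the filter, was at 22.5, 140.5 and 126.7 in diabetic pools and 213.3 and 241.4 in control pools, a difference of -0.73 without overlap. The third, also dim, differed by -0.06.

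Tgfbr2, the type II receptor that binds ligand first, was at 1838, 1375 and 1575 in diabetic pools, against 1122 and 1427 in control pools. Control replicate 1 was the lowest pool, and control replicate 2 lay above diabetic replicate 2. Tgfbr2 differed by 0.30 (SE 0.18) on the log2 scale, with a 95% interval from -0.11 to 0.71 (limma, adjusted p = 0.999), with 0.14 when control replicate 1 was left out and 0.46 when control replicate 2 was. The differences of its other probe sets, both below the filter, were 0.20 and 0.06. The first of these did not overlap between groups, at 130.5, 116.5 and 163.7 in diabetic pools and 103.0 and 102.6 in control pools.

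Of the matrix genes, Mmp2, which degrades denatured collagen and basement membrane collagen, was at 1180, 855.3 and 1249 in diabetic pools, against 867.3 and 1105 in control pools. Diabetic replicate 2 was the lowest pool, and the groups overlapped. Mmp2 differed by 0.13 (SE 0.21) on the log2 scale, with a 95% interval from -0.35 to 0.61 (limma, adjusted p = 0.999), and -0.03 without control replicate 1. The other probe set of Mmp2, below the filter, differed by 0.10, with its highest signal of 865.0 in diabetic replicate 3.

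Timp1, an inhibitor of matrix metalloproteinases that rises in many injured tissues, was dim, at 419.4, 276.5 and 183.7 in diabetic pools, against 311.4 and 320.8 in control pools. The diabetic pools lay on both sides of the nearly equal controls. The log2 difference of -0.12 (SE 0.32) was 0.08 without diabetic replicate 3.

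**Figure D4:**
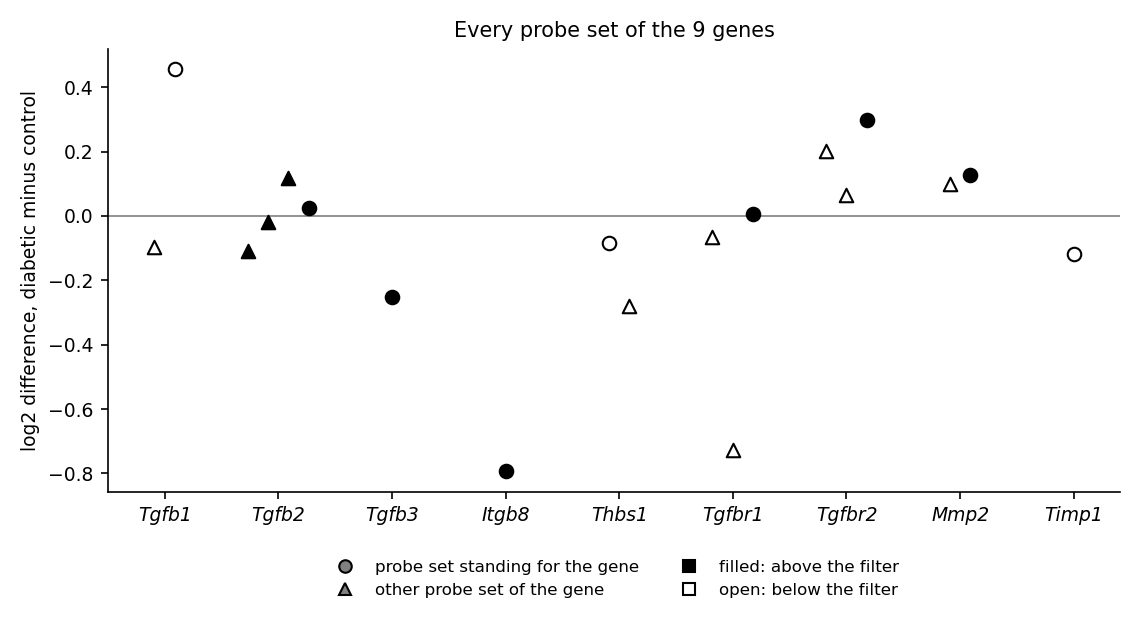
Log2 difference, diabetic minus control, of all 19 probe sets annotated to exactly 1 of the 9 genes, with circles for the probe set that stands for its gene, triangles for the others, and filled symbols for the 9 probe sets above the filter. Probe sets of Tgfb1, Tgfb2 and Tgfbr1 lie on both sides of 0, and the lowest points are Itgb8 at -0.79 and a dim probe set of Tgfbr1 at -0.73.

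Over the 9 members the median log2 difference was 0.005, beside 0.00013 over all 18193 genes. Of the 6 tested members 4 were higher and 2 lower in diabetic pools, and 0 passed. The 95% intervals of 5 of these 6 lay within 1 log2 unit of 0 on either side, as did 98.2% of all tested genes.

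Other genes of the pathway were read from 5 lists by role, in which 52 of the 88 genes found on the array were tested. None passed over all genes tested (limma, smallest adjusted p = 0.999), 30 were higher and 22 lower, and the median of 0.04 compares with 0.01 over all tested genes. There were 2 genes at an unadjusted p under 0.05, or 3.85%, beside 3.39% of all tested genes. In 9 genes, or 17.3%, the diabetic and control values stood apart, beside 18.1% of all tested genes.

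The latency and activation genes, 6 of them tested, had a median of 0.01, with 3 higher and 3 lower, and medians from -0.05 to 0.17 when single arrays were left out. Itgav, the alpha v partner of the beta 8 subunit, was at -0.11 (SE 0.12), where Itgb8 was at -0.79, and at 0.06 without control replicate 2. Ltbp4 and Ltbp3, which tether latent TGF beta to the matrix, were at 0.42 (SE 0.24) and 0.15 (SE 0.10), and Ltbp4 was at 0.03 without control replicate 1. The receptor partners and Smad genes, 16 tested, had a median of 0.04. Pmepa1, an inhibitor of Smad signalling, was at 0.20 (SE 0.14), and at 0.03 without control replicate 2. The inhibitory Smad7 was at -0.31 (SE 0.21) and the co-receptor Tgfbr3 at 0.27 (SE 0.20), or 0.13 without diabetic replicate 1. Smad7 was lower in all 3 diabetic pools than in both controls, but diabetic replicate 1 held most of this, and without it the difference was -0.11.

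Transcripts known to be induced by TGF beta, 12 of them tested, had a median of 0.07, with 9 higher and 3 lower. The direction of this median rested on 1 array, since it was -0.04 without control replicate 1 and 0.14 when control replicate 2 was left out instead. The lowest was Col1a2, a chain of type I collagen, at 809.1, 619.0 and 1143 in diabetic pools and 1278 and 3001 in control pools. All diabetic pools lay below both controls, and control replicate 2 was the highest pool by far. Its log2 difference was -1.13 (SE 0.34, limma, adjusted p = 0.999), and -0.55 without control replicate 2. The summed signal of 8 fibroblast and connective tissue genes, Col1a2 among them, was 3391 to 6863 in diabetic pools and 4686 to 12534 in control pools, with its maximum in control replicate 2, and the part of such tissue in the difference was not tested. Sparc, a collagen-binding matrix protein, was at 0.17 (SE 0.08, limma, adjusted p = 0.999). Its groups did not overlap, at 15930, 17011 and 15686 in diabetic pools and 14097 and 14673 in control pools. Id3, a transcription regulator, was at 0.25 (SE 0.16), or 0.15 without control replicate 1.

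The matrix proteases, 12 tested, had a median of 0.05, with 8 higher and 4 lower. Mmp24 and Mmp16, both membrane-bound metalloproteinases, were at -0.29 (SE 0.20) and -0.23 (SE 0.19), or -0.11 and -0.10 when control replicate 1 was left out. Mmp24 did not overlap between groups, at 771.2, 727.7 and 754.4 in diabetic pools and 1089 and 821.3 in control pools. Plat, tissue plasminogen activator, was at 0.17 (SE 0.12), or 0.10 without control replicate 2. Of the 6 tested inhibitors and receptors 5 were lower, with a median of -0.07, which was -0.21 without control replicate 1 and turned to 0.09 when control replicate 2 was left out. Timp3, an inhibitor made by the pigment epithelium and bound in its basement membrane, was at 4304, 4383 and 4880 in diabetic pools and 5176 and 7503 in control pools. The groups did not overlap, and control replicate 2 was highest, as for Itgb8 and the pigment epithelium sum. That pool was also highest in the summed signals of microglia and macrophage, fibroblast and connective tissue, and mural cell genes. The part of any of these cell types in the Timp3 difference was not tested. The log2 difference of Timp3 was -0.45 (SE 0.15, limma, adjusted p = 0.999), and -0.19 without control replicate 2. Serpinf1, the pigment epithelium-derived factor, was at -0.42 (SE 0.30) and at 0.10 without control replicate 2, while Timp2 was at 0.12 (SE 0.15), and at -0.09 without control replicate 1.

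**Figure D5:**
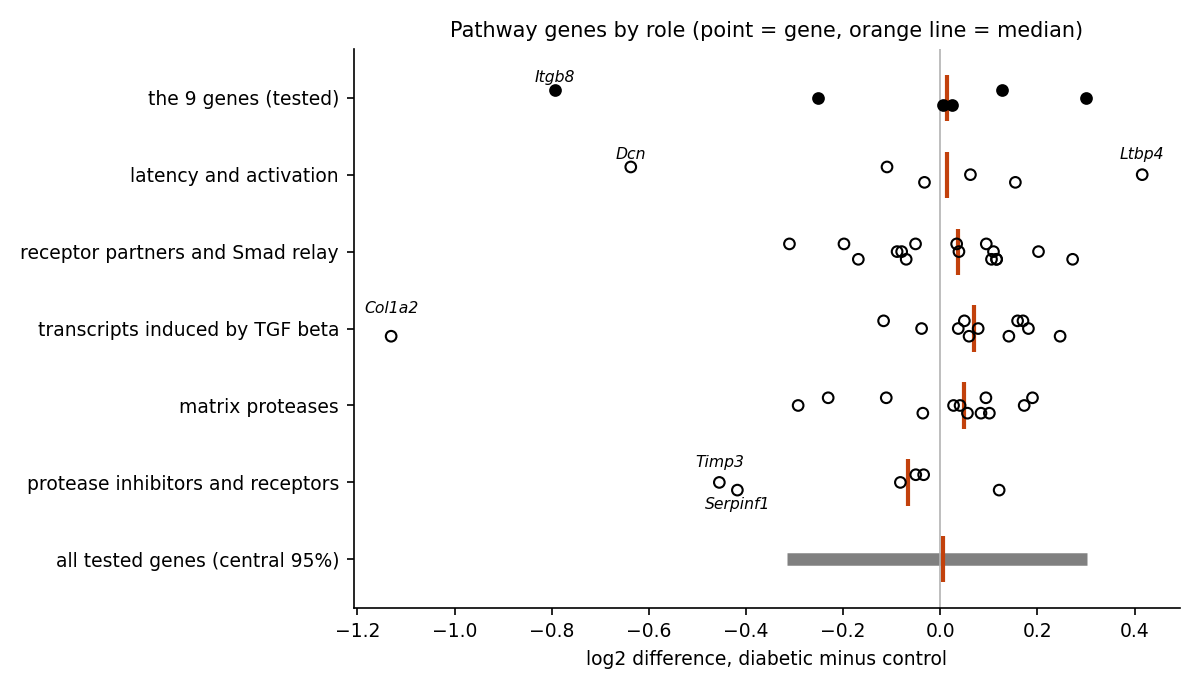
Log2 difference, diabetic minus control, of the 6 tested members (filled) and of the tested genes of 5 pathway lists (open), 1 point per gene, with an orange line at each median and a bar from -0.32 to 0.30 that holds the central 95% of all tested genes. Medians lie between -0.07 and 0.07, and the named points beyond -0.38 or 0.38 include Dcn, at -0.64 with an SE of 1.02.

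Besides Itgb8, Tgfb1 was the member that spanned at least 1 log2 unit, at 1.33. The 3 genes nearest to it were Lpp, a LIM domain protein of focal adhesions, Itih5, a hyaluronan-associated protein, and Kcnj11, a potassium channel subunit. Their root mean square differences were 0.117, 0.141 and 0.160, and all 3 were lowest in control replicate 1.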

How the data were processed

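Total RNA of 5 pools of mouse retina was measured on Affymetrix mouse arrays, 1 array per pool. Groups and replicate numbers came from the sample titles. The authors deposited 1 signal intensity for each probe set, not log-transformed. Every array had the same mean, 2500.0, once 2% of values at each end were dropped, which is how global scaling leaves a table. The summarization software is not given in the sources used here, nor is the background correction behind low values.

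The table held 45101 probe sets, 64 of them controls, 34945 with 1 symbol and 932 with several. Old symbols were replaced through their Entrez IDs, using RefSeq genes of GRCm38.p6. The probe set of highest mean stood for its gene. Signals were taken as log2(signal + 120.6), the pseudocount being the 20th percentile. The deposited scaling was kept, since array medians lay within 0.15 of each other (limit 0.2). Genes in the upper 60% by mean, 10916 of 18193, were compared with limma 3.58.1 in R 4.3.3 (lmFit, and eBayes with a trend, 3 residual degrees of freedom), with Benjamini-Hochberg adjustment at 0.05. The steps were tested on simulated data. The number of arrays limits the precision.

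The 9 members, the pathway and marker lists and the tests were chosen with earlier results of these data known. Named genes were all members, the 3 genes of smallest unadjusted p in each pathway list, the 2 marker genes of highest mean where a list moved with a result, and, for members spanning 1 log2 unit or more over the arrays, the 3 tested genes nearest in centred log2 values. Dcn was named after its value was seen. Alternatives covered normalization, pseudocount, filter, probe set choice, variance model, array weights, a replicate block and arrays left out. Promoter matches were literal searches of both strands. Plots were made with matplotlib 3.10.9.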

Additional observations from a re-analysis of the deposited data

How the results depend on the processing

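No tested member passed under any of 18 alternatives, most of which tested 6 of the 9, while the upper 40% of genes held 3 and the fit without a filter held 9. Of the tested pathway genes 0 passed under any of 15. Itgb8 stayed lower in diabetic pools under all 18, between -1.08 and -0.51, with unadjusted p from 0.000151 to 0.0213 and adjusted p from 0.266 to 0.99997 (limma). Tgfb3 stayed lower and Tgfbr2 higher under all 18. Over all genes, 2 were called with a replicate block (Rgr and Spc25) and 2 without both arrays of high muscle signal (Spc25 and Npl). With single arrays left out the count ran from 0 to 1, the gene being Prss22 without diabetic replicate 2 and Spc25 without diabetic replicate 3. No member was among these genes, and the cause was not tested. The median of the 9 members was -0.12 with the mean of a gene's probe sets and 0.10 without both muscle arrays, and between -0.05 and 0.05 with single arrays left out. Small differences changed sign: Tgfbr1 was at -0.00136 with quantile normalization, -0.26 with the mean of its probe sets, which gives dim ones equal weight, and -0.0095 with the block. Timp1 was at 0.0846 with the block. Without both muscle arrays Tgfb2 was at -0.0547, Thbs1 at 0.26, Tgfbr1 at -0.069 and Timp1 at 0.10. With single arrays left out Tgfb1 lay between -0.0166 and 0.93, Tgfb2 between -0.0466 and 0.095, Thbs1 between -0.55 and 0.38, Tgfbr1 between -0.0546 and 0.0644, Mmp2 between -0.0274 and 0.28 and Timp1 between -0.33 and 0.0846. The replicate numbers come from the sample titles, and whether they mark a pairing or batch was not settled. Deviations of same-numbered pools correlated at 0.13 and -0.14, and those of diabetic replicate 3 with control replicate 2 at 0.27. With 2 control pools these deviations mirror each other, so the correlations cannot decide it. The block, in which diabetic replicate 3 has no partner, gave Itgb8 at -0.81. No detection calls were used, so whether Tgfb1, Thbs1 and Timp1 lay above background is unknown here.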
